A study of Mus musculus with 2 samples.

Results

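Mir148a, Mir148b and Mir152 are microRNA (miRNA) genes at 3 separate loci whose 3′-arm products carry the same seed. They were taken by name from the deposited tables, and all 3 were found among the 2202 miRNA genes measured. The cells were C2C12, a mouse myoblast line derived from injured thigh muscle of C3H mice, which withdraws from the cell cycle and fuses into multinucleated myotubes when it differentiates in culture. The series held 1 group of 2 libraries, biological replicates 1 and 2 from separate biosamples, both differentiated for 72 h. No treatment and no undifferentiated control was included, and both libraries came from a single cell line. Levels, as reads, could therefore be compared between genes and between the libraries but not between conditions.

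A miRNA is cut from a hairpin precursor and loaded into an Argonaute protein, which it guides to messenger RNAs by pairing of its seed, bases 2 to 8 counted from the 5′ end. Genes with 1 seed can therefore share targets even where the rest of the miRNA differs. The Mir148 and Mir152 family is known for targeting the DNA methyltransferase Dnmt1 and, in liver, genes of lipid uptake and export. In C2C12 cells Mir148a has been reported to promote myogenic differentiation by targeting Rock1, a kinase of the actin cytoskeleton.

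The 3′-arm miRNAs define the family and are shown with the seed in capitals (RefSeq, GRCm38.p6), each 5′ to 3′.
miR-148a-3p: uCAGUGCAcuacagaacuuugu
miR-148b-3p: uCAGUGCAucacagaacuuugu
miR-152-3p: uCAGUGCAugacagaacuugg

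The seed CAGUGCA was identical in all 3, and no other gene in the RefSeq table, which held 1738 mature sequences, had it. The site in a target that pairs with it reads UGCACUG. Outside the seed the members differed at few bases, counted from 1 at the 5′ end and with the first-named miRNA's base first. From miR-148a-3p to miR-148b-3p the changes were C9U and U10C. From miR-148b-3p to miR-152-3p they were C10G and U20G, and miR-152-3p is 21 bases long where the other two are 22. From miR-148a-3p to miR-152-3p they were C9U, U10G and U20G. The members thus differed just after the seed, at bases 9 and 10, and near the 3′ end, at base 20.

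The opposite arms of the hairpins diverged more, and their seeds, again in capitals, were not all shared.
miR-148a-5p: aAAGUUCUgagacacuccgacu
miR-148b-5p: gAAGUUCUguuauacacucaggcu
miR-152-5p: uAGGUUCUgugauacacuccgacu

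Mir148a and Mir148b had the 5′-arm seed AAGUUCU in common, and Mir152 had AGGUUCU, which no other gene in the table had. The deposited counts are per gene, so reads of the 3′ and 5′ arms could not be separated, and every level below is the sum of both arms.

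The hairpins are shown with the 3′-arm miRNA in capitals, because their likeness bears on whether reads of 1 member can be mistaken for another.
Mir148a: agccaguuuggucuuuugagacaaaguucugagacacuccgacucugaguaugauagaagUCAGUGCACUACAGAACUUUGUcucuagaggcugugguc
Mir148b: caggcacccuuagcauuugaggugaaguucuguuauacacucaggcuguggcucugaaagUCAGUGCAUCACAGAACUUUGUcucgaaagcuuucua
Mir152: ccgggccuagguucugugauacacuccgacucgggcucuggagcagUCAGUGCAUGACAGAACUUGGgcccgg

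The longest run of bases that Mir148a and Mir148b hairpins had in common was 15 bases, and neither had a longer run in common with any other annotated miRNA hairpin on either strand. For Mir152 the longest such run was 13 bases. None of the members was among the 1133 of 2202 genes with a near-identical copy. That was defined here as an exact run of at least 20 bases found also, on either strand, in a different miRNA hairpin. By this rule a hairpin annotated on the opposite strand of the same locus counts as a copy. The rule covers exact runs only. Any 2 of the 3′-arm miRNAs differed at just 2 or 3 bases, and the mismatches allowed in alignment were not given. The rule therefore cannot exclude that reads of 1 member were counted for another, which was not tested. Reads that mapped to several places were left out of the gene counts (22.01% and 17.9% of all deposited read counts in replicates 1 and 2). How many of these came from the family was not tested.

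Mir148a (ENSMUSG00000065505.1) lies at chr6:51269812-51269910 on the minus strand (mm10), in no protein-coding gene. The nearest, Nfe2l3, starts 162760 bases away on the other strand. Mir148b (ENSMUSG00000065560.1) lies at chr15:103285125-103285221 on the plus strand, within intron 1 of Copz1 and 3879 bases before the next exon. Mir152 (ENSMUSG00000065515.1) lies at chr11:96850393-96850465 on the plus strand, within intron 1 of Copz2, an intron of 676 bases, and 517 bases downstream of the start of that transcript. Copz1 and Copz2 are paralogs, and each encodes a zeta subunit of coatomer, the coat of COPI vesicles that move between Golgi and endoplasmic reticulum. Both intronic members are on the strand of their host.

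The 3 loci had the same families of protein-coding genes around them. Upstream of each hairpin, along its own strand, came a gene of the Nfe2 family, which encodes bZIP transcription factors, and then a gene of the Cbx family for a heterochromatin protein. A Hox cluster, which holds homeobox genes of body patterning, lay further out. For Mir152 these were Nfe2l1 at 20.4 kb, Cbx1 at 41.8 kb and the nearest Hoxb gene at 482 kb. For Mir148b they were Nfe2 at 26.7 kb, Cbx5 at 45.3 kb and the nearest Hoxc gene at 248 kb. For Mir148a they were Nfe2l3 at 163 kb, Cbx3 at 200.45 kb and the nearest Hoxa gene at 886 kb. Skap1 and Skap2, a pair of adapter protein genes, lay between the Cbx gene and the Hox cluster at the Mir152 and Mir148a loci. A Copz gene was present only at the Mir152 and Mir148b loci within the 1000 kb searched. These gene families were chosen for display after the annotation had been looked at.

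**Figure D1:**
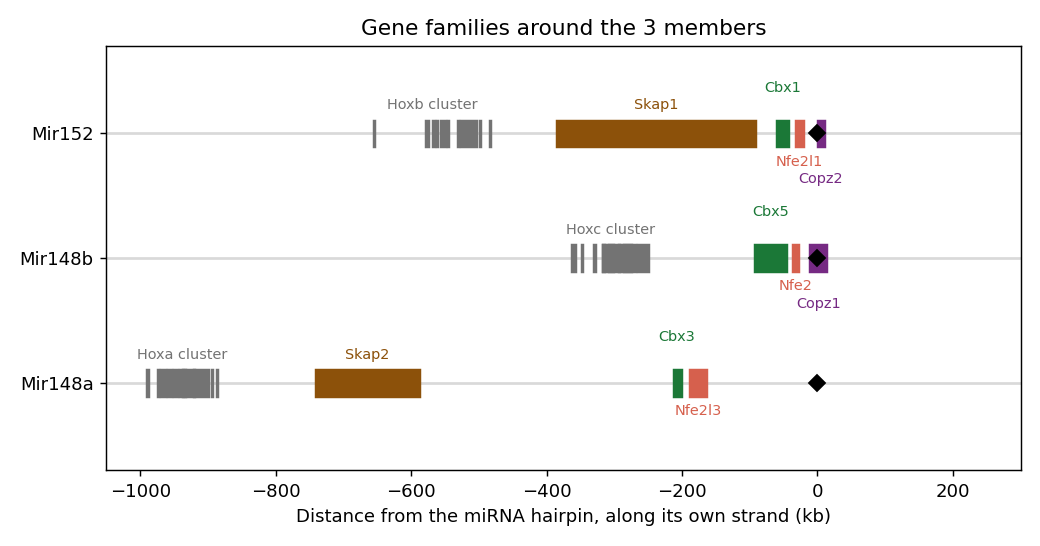
Positions of Copz, Nfe2, Cbx, Skap and Hox genes (coloured bars, to scale) around each hairpin (black diamond), in kb along the hairpin's own strand. At all 3 loci the order away from the hairpin is Nfe2 family, Cbx family and Hox cluster, and the Nfe2-family gene is 20.4, 26.7 and 163 kb away.

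Replicate 1 held 7581366 and replicate 2 held 9865298 reads on the genes' own strand, the totals behind CPM, the reads of a gene per 1000000 miRNA gene reads. The floor set by 3 reads was 0.396 and 0.304 CPM. Of the 2202 genes, 274 (12.4%) were detected, meaning 2 CPM or more in both libraries. The label was checked against miRNA markers. Skeletal muscle miRNAs took 35.5% and 42.8% of gene reads, with 9 of 12 detected: Mir206 (378817 ± 53707 CPM, SD, n = 2), Mir133b, Mir499, Mir208b, Mir486, Mir208a, Mir1b, Mir3107 and Mir1a-1. Mir206 made up most of that share, 340841 of 355331 CPM in replicate 1 and 416794 of 428308 CPM in replicate 2. Not detected were Mir1a-2, Mir133a-1 and Mir133a-2, at mean levels of 3.02, 2.01 and 1.03 CPM. The median mean level of the 12 genes was 8.74 CPM, and 8 of them have near-identical copies. Fibroblast and smooth muscle miRNAs took 18.1% and 13.1%, led by Mir21a and Mir22, with 9 of 11 detected. The summed level of blood-cell markers was 105 and 183 CPM (2 of 6 detected, led by Mir142 and Mir451a). That of neuronal markers was 168 and 153 CPM (4 of 12, led by Mir153 and Mir138-1), with no read from Mir124a-1, Mir124a-2 or Mir124a-3, which are copies of each other. Epithelial markers summed to 123 and 124 CPM (3 of 10, led by Mir192 and Mir194-2), with Mir200a and Mir429 at 0. Endothelial markers, Mir126a and Mir126b, summed to 219 and 44.5 CPM (1 of 2). Liver and pancreas markers summed to 1.19 and 1.62 CPM (0 of 5, led by Mir122 and Mir375). Both libraries came from 1 cell line, so these sums are levels of miRNAs and do not count cells of the named types. In whole cultures, fewer cells with a miRNA and less of it per cell cannot be told apart.

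All 3 members were detected, and Mir152 was the most abundant of them in both libraries. Mir152 was counted 2372 times in replicate 1 and 5915 times in replicate 2. That was 313 CPM (95% exact Clopper-Pearson interval 300.4 to 326) and 600 CPM (584 to 615), or 456 ± 203 CPM (SD, n = 2). Replicate 2 was the higher library for Mir152 by 1.92-fold in CPM, far outside the intervals, which cover counting error only.

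Mir148b had 1651 reads in replicate 1 and 1358 in replicate 2. These were 218 CPM (interval 207 to 229) and 138 CPM (130.4 to 145), or 178 ± 56.7 CPM (SD, n = 2). For Mir148b replicate 1 was the higher library, by 1.58-fold in CPM. The lower Mir152 level, 313 CPM, was above the higher Mir148b level, 218 CPM.

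Mir148a, for which a role in myogenesis has been reported, was the scarcest. It had 314 reads in replicate 1 and 424 in replicate 2, or 41.4 CPM (interval 37.0 to 46.3) and 43.0 CPM (39.0 to 47.3). The mean was 42.2 ± 1.10 CPM (SD, n = 2). The intervals overlapped, and the Mir148a libraries were the closest together of the 3 members. The higher Mir148a level was below the lower Mir148b level, so no neighbours in the order Mir152, Mir148b, Mir148a overlapped between libraries.

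**Figure D2:**
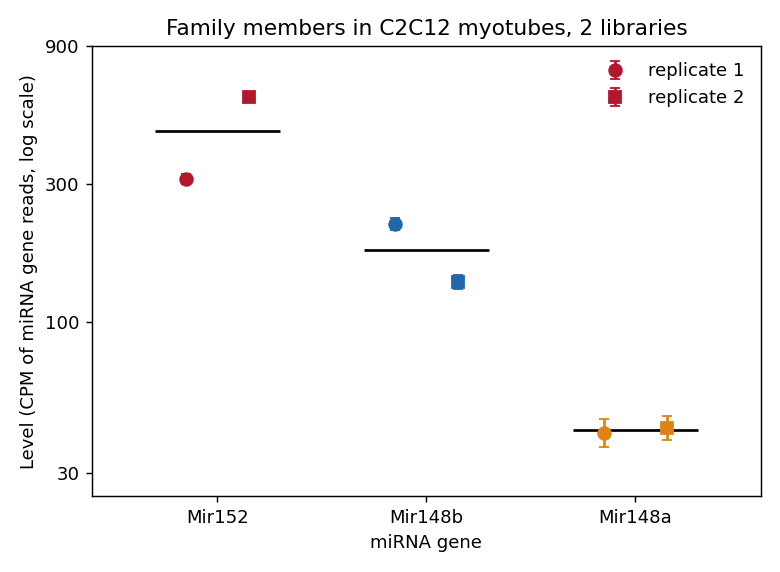
Level of each member in CPM of miRNA gene reads (log scale) in replicate 1 (circle) and replicate 2 (square), with 95% exact intervals for counting error and a black line at the mean. Mir152 (313 and 600 CPM) lies above Mir148b (218 and 138 CPM), and Mir148a (41.4 and 43.0 CPM) lies below both.

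The family as a whole made up little of the miRNA pool. Its summed level was 572 CPM in replicate 1 and 780 CPM in replicate 2, or 676 ± 147 CPM (SD, n = 2), which is 0.0676% of miRNA gene reads. By level, Mir152 ranked 101 in replicate 1 and 71 in replicate 2 among the 2202 genes. Mir148b ranked 116 and 118, and Mir148a ranked 165 and 157. The median mean level of detected genes was 90.3 CPM, so Mir152 and Mir148b were above it and Mir148a was below it. Between Mir152 and Mir148b there were 14 other genes in replicate 1 and 46 in replicate 2, and between Mir148b and Mir148a there were 48 and 38.

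The ratios between members had the same direction in both libraries and differed in size. Mir152 exceeded Mir148b 1.44-fold in replicate 1 and 4.35-fold in replicate 2, a log2 ratio of 1.32 ± 1.13 (SD, n = 2). The SD of this ratio was nearly as large as its mean, so the size of the gap was not resolved. Mir152 exceeded Mir148a 7.54-fold and 13.9-fold (log2 ratio 3.36 ± 0.63). Mir148b exceeded Mir148a 5.25-fold and 3.20-fold (log2 ratio 2.04 ± 0.51). These last ratios were several times their SD. The exact paired permutation test over 2 libraries cannot give a p below 0.5, so none was made. A read was taken to stand for 1 miRNA of 21 to 24 bases whatever the length of its gene. Whether different miRNAs were read with equal efficiency was not tested, so the order and the ratios are of reads. Divided by the length of the annotated gene (73, 97 and 99 bases for Mir152, Mir148b and Mir148a), the order was the same and the log2 ratios were 1.73, 3.80 and 2.06.

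The make-up of the family differed between the libraries. Mir152 supplied 54.7% of its reads in replicate 1 (95% exact interval 53.2% to 56.2%) and 76.8% in replicate 2 (75.9% to 77.8%). Mir148b supplied 38.1% (36.6% to 39.5%) and 17.6% (16.8% to 18.5%). Mir148a supplied 7.24% (6.49% to 8.05%) and 5.51% (5.01% to 6.04%). Mir148a was the smallest part in either library, and the shares of Mir152 and Mir148b differed most.

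**Figure D3:**
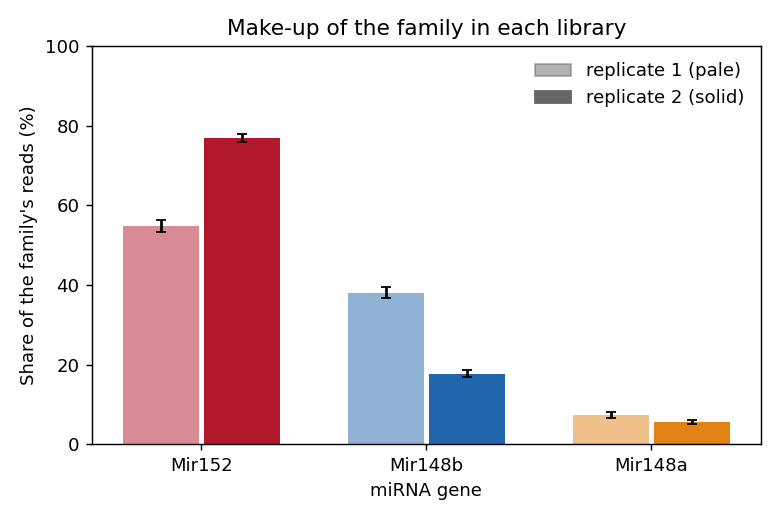
Share of the family's reads (percent) from each member in replicate 1 (pale bars) and replicate 2 (solid bars), with 95% exact intervals for counting error. Mir152 is at 54.7% and 76.8%, Mir148b at 38.1% and 17.6%, and Mir148a is at 7.24% and 5.51%.

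The difference between the libraries was tested gene by gene with a two-sided exact binomial test, in which TMM factors scaled the library sizes. Its p-values were adjusted by the Benjamini-Hochberg method over the 415 genes with at least 10 reads. TMM scaling raised every log2 difference of replicate 2 over replicate 1 by 0.13 compared with CPM, and the values here are on the TMM scale. The p-values and intervals treat reads as independent and cover counting error only. Mir152 was 2.09-fold higher in replicate 2, a log2 difference of 1.07 (95% exact interval 1.00 to 1.14, adjusted p = 2.23e-220, edgeR TMM scaling). Mir148b was 1.45-fold higher in replicate 1, a log2 difference of -0.53 (interval -0.64 to -0.43, adjusted p = 1.42e-23, edgeR TMM scaling). Mir148a differed by 0.18 in log2 (interval -0.03 to 0.40) and did not pass (adjusted p = 0.153, edgeR TMM scaling), which does not show that it was the same in both.

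The test compares these 2 libraries and not conditions, and most genes passed it. Of the 415 genes 232 passed (55.9%), 113 higher in replicate 1 (27.2%) and 119 higher in replicate 2 (28.7%), so a count of 2 of 3 members is no result about the family. The direction was split otherwise under other scalings, 129 higher in replicate 1 and 101 in replicate 2 with library totals, and 124 and 110 with DESeq2 size factors. The share that passed also rose with the read filter, from 31.2% of 708 genes with none to 86.7% of 240 genes with at least 100 reads. Under that last filter all 3 members passed, Mir148a with an adjusted p of 0.0242 (edgeR TMM scaling). Between the libraries the coefficient of variation of a detected gene was 0.426 (edgeR common dispersion, 274 genes), and the median size of the log2 difference was 0.54. A larger difference than that of Mir152 was found in 50 of the 274 detected genes, than that of Mir148b in 139, and than that of Mir148a in 227. Mir152 was therefore among the less even genes, Mir148b near the middle, and Mir148a among the more even.

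**Figure D4:**
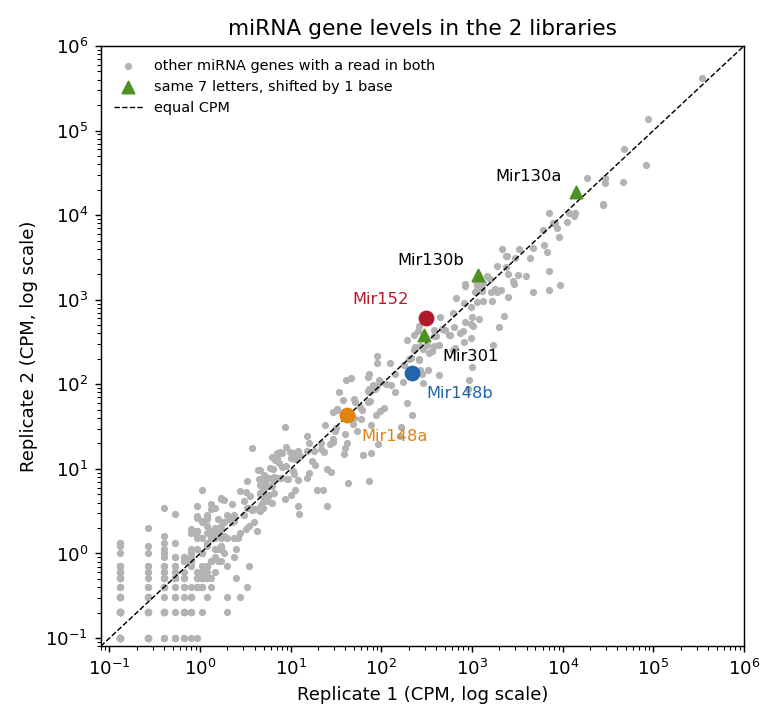
Level of every miRNA gene with a read in both libraries, replicate 1 against replicate 2 (CPM, log scales), with the dashed line at equal CPM. Mir152 (red) lies above the line, Mir148b (blue) below it and Mir148a (orange) on it, and green triangles mark Mir130a, Mir130b and Mir301.

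The 7 letters of the family seed also stand in other measured miRNAs, 1 base earlier, at bases 1 to 7. Of the genes in the RefSeq table that hold them, the 3 with reads are shown with those letters in capitals, for comparison with the family's seed.
miR-130a-3p: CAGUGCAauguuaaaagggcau
miR-130b-3p: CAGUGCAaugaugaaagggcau
miR-301a-3p: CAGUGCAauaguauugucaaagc

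Their own seed, at bases 2 to 8, is AGUGCAA, and the site that pairs with it, UUGCACU, has the 6 letters UGCACU in common with the site of the Mir148 and Mir152 seed. Among the RefSeq entries 7 genes had this shifted form, and Mir130c, Mir721, Mir6341 and Mir6389 had no read in either library. Mir301b, of the Mir130 and Mir301 family, has no RefSeq entry here. Its sequence was not compared, and it is not in that count. Mir130a was at 13952 CPM in replicate 1 and 18851 CPM in replicate 2, or 16401 ± 3465 CPM (SD, n = 2). Mir130b was at 1552 ± 542 CPM and Mir301 at 337 ± 59.3 CPM (SD, n = 2). The 7 genes summed to 18290 ± 4066 CPM (SD, n = 2). That was 26.9 times the Mir148 and Mir152 sum in replicate 1 and 27.1 times in replicate 2, although the composition of the Mir148 and Mir152 family differed between the libraries. With Mir301b, at 6.12 ± 1.38 CPM, 4 of the 5 genes of the Mir130 and Mir301 family were detected.

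Other families with members in introns of paralogous hosts gave further points of comparison. The Mir26 genes lie in introns of small phosphatase genes (Ctdspl and relatives), and the Mir103 and Mir107 genes in introns of pantothenate kinase genes. The Mir26 genes summed to 1274 and 651 CPM, led by Mir26b at 891 ± 434 CPM (SD, n = 2). The Mir103 and Mir107 genes summed to 940.1 and 109 CPM, led by Mir107 at 500 ± 581 CPM (SD, n = 2). Both sums were lower in replicate 2 than in replicate 1, whereas the Mir148 and Mir152 sum was higher there. Mir26a-1, Mir26a-2 and all 3 Mir103 and Mir107 genes have near-identical copies, so these sums miss an unknown number of multimapping reads.

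Mir148b and Mir152 were also placed among miRNA genes that lie in an intron of a protein-coding gene on the same strand. There were 772 such genes, of which 123 (15.9%) were detected, against 151 of the other 1430 (10.6%). Among the 123 the median mean level was 82.4 CPM. Mir152 had 36 of them above it and Mir148b had 50, so both were in the upper part of the detected intronic genes. Mir148a, which lies in no protein-coding gene, was below that median. Hosts of other kinds were not searched.

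Of 16 other miRNA genes measured within 1000 kb of a member, 5 were detected, against 274 of all 2202 genes (12.4%), and all 5 lie by the Hox clusters. These genes were named after their values were seen. On the side of Mir148a, Mir196b was at 995 ± 990 CPM (SD, n = 2). On the side of Mir148b, Mir615 was at 1352 ± 299.6 CPM and Mir196a-2 at 566 ± 347 CPM (SD, n = 2). On the side of Mir152, Mir10a was at 11.5 ± 5.21 CPM and Mir196a-1 at 4.25 ± 0.706 CPM (SD, n = 2). Both Mir196a genes have near-identical copies, and their counts are uncertain.

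A list of 35 other miRNA genes reported to modulate proliferation or differentiation of myoblasts was set beside the members. Of these, 33 were detected, against 274 of all 2202 genes (12.4%). The median mean level of all 35 was 461 CPM, against 90.3 CPM for all detected genes and 11.2 CPM for all 415 genes tested. The list was chosen with earlier results of these data known, so these comparisons are descriptive only. By mean level, 18 of the 35 were above Mir152, 10 lay between Mir152 and Mir148a, and 7 were below Mir148a. The highest were Mir378a, which lies in the metabolic coactivator gene Ppargc1b, at 112998 ± 36038 CPM, and Mir23a at 26596 ± 3628 CPM (SD, n = 2). Between the libraries 28 of the 34 tested passed, 16 higher in replicate 1 and 12 higher in replicate 2, against 55.9% of all genes tested and 86.7% of the 240 genes with at least 100 reads. Near-identical copies exist for 21 of the 35 genes, Mir378a and Mir23a included, and their counts are uncertain.

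The genes most like each member were found by distance between log2 CPM values over the 2 libraries. Nearest to Mir152 were Mir208b (distance 0.38), in an intron of a slow myosin gene, Mir186 (0.49) and Mir185 (0.53). Mir208b was at 260.4 and 495 CPM in replicates 1 and 2. Nearest to Mir148b were Mir29c (0.24), Mir574 (0.30) and Mir450b (0.36). Mir29c was at 258 and 140.2 CPM. Nearest to Mir148a were Mir3061 (0.30), Mir1306 (0.40) and Mir1843b (0.41). Mir3061 was at 50.3 and 39.9 CPM. With 2 libraries the distance reflects a gene's level and 1 difference, and Mir29c and Mir1843b have near-identical copies.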

How the data were processed

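Small RNA of 2 C2C12 myotube libraries was measured by miRNA sequencing. The authors deposited raw read counts per miRNA gene, made on mm10 with annotation M21, as the deposited text states. Not given in the sources used here were the aligner, counter, trimming and read filters. The tables have 3 count columns, read from the values as strand ignored, own strand and opposite strand, and 4 summary lines (unmapped 22.7% and 23.1%, multimapping 22.0% and 17.9%, no feature 5.88% and 5.57% of reads) that were left out of totals and tests. Members had 0 reads on the opposite strand.

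Identifiers were matched to GENCODE M21 and all 2202 matched. Mature miRNAs and hairpins came from RefSeq (GRCm38.p6), and all 3 members matched. CPM used own-strand gene reads. Detection meant 2 CPM in both libraries. Ratios used a pseudocount of 0.5 reads. TMM factors and the dispersion came from edgeR 4.0.16 in R 4.3.3. The quasi-likelihood test was not possible with 1 group. The binomial test, at a threshold of 0.05, used scipy 1.17.1. It was tried on simulated Poisson counts with set fold changes and no spread between libraries beyond counting error. That trial does not show how the test performs where genes vary more between libraries, as here. Replicates are labelled biological, and the counts are of reads, with no molecular identifiers mentioned. Named genes were the members, the 3 nearest to each by log2 CPM, genes with the family's seed letters (for the shifted form, the 4 highest, of which 3 had reads), the leading 2 genes of each list, detected skeletal muscle miRNAs and 3 comparison families. Outside this rule are the shifted-seed genes and markers without reads, the undetected skeletal muscle miRNAs and the miRNA genes near the members. These were named after their values were seen. The members and lists were chosen with earlier results of these data known. Of the listed symbols Mir486b, Mir124-2hg and Mir122a had no match.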

Additional observations from a re-analysis of the deposited data

Results flagged for a closer look

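Reads that mapped to several places are outside the counts used here. They numbered 3378438 in replicate 1 and 3295854 in replicate 2, each a total over the whole library. How many came from any single gene was not tested.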

How the results depend on the processing

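There were 63 alternative values for 13 results. None of the ratios or log2 differences changed direction, and the mean levels, the share and the counts of genes have no direction to change. The members' reads were the same with strand ignored, so their ratios and shares could not change there. Of the 63 values 53 stayed within the replicate spread, on the same side of the threshold or, for counts of genes, near the count reported. Among the others, 9 mean levels moved and 1 test passed that had not. With all reads as the denominator the means were 21.7 CPM for Mir148a, 90.6 for Mir148b, 238 for Mir152 and 349.9 for the sum. Without Mir206 in the total they were 68.3, 283, 751 and 1103 CPM. With strand ignored Mir148a was 48.3 CPM, because the total was smaller and its reads were the same. With only genes of 100 or more reads, Mir148a passed at a log2 difference of 0.25 (adjusted p = 0.0242, edgeR TMM scaling); over the other alternatives its adjusted p ran from 0.179 to 0.716. Mir148b and Mir152 passed in every alternative run. A mean of 2 libraries always lies within 1 SD of each, so leaving out a library could not count as a move; the log2 ratio of Mir152 to Mir148b was 2.12 without replicate 1 and 0.52 without replicate 2. Genes called between the libraries numbered 208 (of 240 with at least 100 reads) to 234 (of 415), and 221 of 708 with no filter. Genes detected numbered 327 at 1 CPM, 274 at 2 CPM and 193 at 10 CPM. No paired analysis was possible because there was 1 group. Depth limits Mir148a most, with 314 and 424 reads.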
